A study of Mus musculus with 19 samples.

Results

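RNA of monocyte-derived Kupffer cells from steatotic liver was compared, gene by gene, with RNA of the resident Kupffer cells of healthy liver. The 13 libraries compared, of 19 in the series, were chosen by their labels. The 6 Chow_EmKCs libraries hold resident cells of embryonic origin, sorted as CLEC2+ TIMD4+, from female C57BL/6 mice on chow. MCD_MoKCs (n = 7) are monocyte-derived Kupffer cells, sorted as CLEC2+ TIMD4-, from female C57BL/6 mice fed for 4 weeks on a diet without methionine and choline (MCD). All cells came from collagenase-digested liver of wild-type animals and were purified by flow cytometry before SMART-seq amplification of their RNA. The 6 libraries of embryo-derived cells on the MCD diet were not used. Diet and origin differ together between the groups, so their parts in any difference cannot be told apart. The TIMD4 gate stands for origin, and no lineage tracing is described in the labels. Nothing there says which libraries came from separate animals or from pools, so the p-values measure the spread between libraries, which may be partly technical.

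Kupffer cells are macrophages of the liver sinusoids that clear bacteria, old red cells and complement-coated particles from portal blood. Those seeded before birth renew themselves, and when they die, blood monocytes enter the emptied niche and take on much of the Kupffer cell program under Notch, BMP, TGF-beta and LXR alpha signals. CLEC2 and CLEC4F are early marks of that program, and TIMD4, a receptor for apoptotic cells, is acquired late. The MCD diet blocks export of lipid from hepatocytes and leads to steatohepatitis, in which macrophages with a lipid-associated program (TREM2, GPNMB, CD9) appear.

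The gate was visible in the RNA. Timd4, set by the sort, had 8423 to 13558 normalised reads per library in Chow_EmKCs and 258 to 743 in MCD_MoKCs. Clec1b, which encodes CLEC2 and was positive in both gates, had 5903 to 7869.6 and 3529 to 6533 with overlapping ranges, and its log2 fold change of -0.38 (SE 0.15, adjusted p = 0.0902) did not pass the test. Libraries 1 to 3 of MCD_MoKCs had 5799 to 6533, and libraries 4 to 7 had 3529 to 4738, below every Chow_EmKCs library. Without libraries 1 to 3 it passed as lower, as given further below. A normalised read is a read divided by the authors' size factor for its library. Total reads were 11642240 to 30983487 per library and the exact permutation test found no difference between groups (two-sided, p = 0.99). Among MCD_MoKCs, libraries 1 to 3 stood apart from 4 to 7. They lay at 44.6 to 76.1 against -71.4 to -30.7 on the second principal component (10.2% of variance), with mitochondrial shares of 0.534 to 0.729% against 0.244 to 0.359% of reads. Chow_EmKCs libraries 1 to 3 lay at 19.3 to 20.5 on that component and 4 to 6 at -21.6 to -13.6, a narrower split. Depth followed the split of MCD_MoKCs, with 11642240 to 16750655 total reads in libraries 1 to 3 and 19215122 to 30983487 in 4 to 7. Genes with at least 1 read numbered 15216 to 15705 and 16274 to 16847 in these sets. Counts of list members that move by over 1.5 times without either MCD_MoKCs set are therefore also given without it. On the first component (33.7%) the groups separated without overlap, at -91.3 to -71.1 for Chow_EmKCs and 59.3 to 88.0 for MCD_MoKCs.

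The first question was how far the replacement cells were from the steady-state resident cells. Of 14192 genes tested, 2452 (17.3%) differed between the groups at an adjusted p under 0.05 (limma, Benjamini-Hochberg over all genes tested). In MCD_MoKCs 1313 were higher (9.25% of genes tested) and 1139 were lower (8.03%). A difference beyond 2-fold, tested as such, was found for 629 genes (4.43%), of which 414 were higher and 215 lower. For 5450 genes (38.4%) the 95% interval of the difference lay within 2-fold in either direction. These shares of all genes tested are the background beside which the counts of every list below are to be read. The median log2 fold change over all genes was -0.01. In bulk RNA of sorted cells, fewer cells of a type and less RNA per cell cannot be told apart.

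Differences were larger among the genes that were higher. The median size on the log2 scale was 1.75 among the 1313 higher genes and 1.41 among the 1139 lower genes, and a difference of more than 6 was reached by 78 and 10 of them. Genes higher in MCD_MoKCs took 7.53 ± 0.419% of reads in Chow_EmKCs (SD, n = 6) and 16.0 ± 1.04% in MCD_MoKCs (SD, n = 7). Genes that were lower took 20.05 ± 0.649% and 9.13 ± 0.699%. These shares describe genes chosen by the same comparison and are no separate test. Of the 50 most abundant genes of each group 38 were shared, as were 77 of the top 100 and 393 of the top 500. Pearson's r of log2 values across genes was 0.871 to 0.904 between pairs of Chow_EmKCs libraries and 0.827 to 0.891 between pairs of MCD_MoKCs libraries. It was 0.747 to 0.821 between libraries of different groups, below every pair within a group. Genes are not independent replicates, and these correlations are descriptions.

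**Figure D1:**
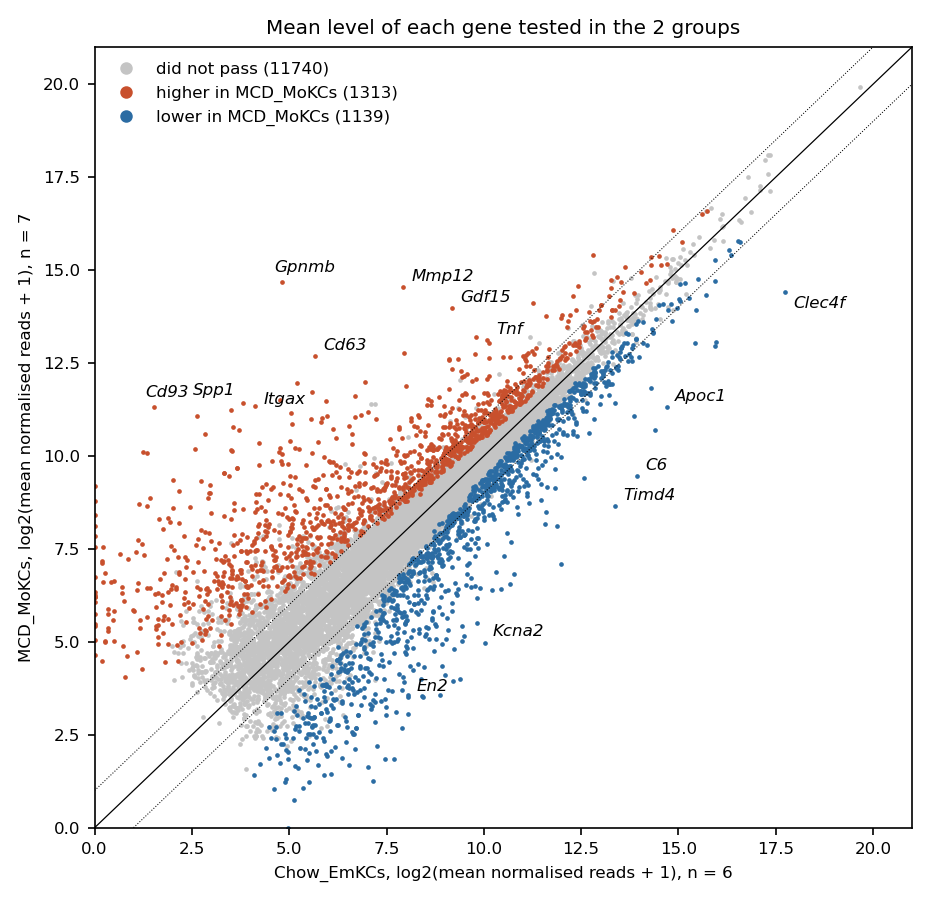
Mean level of each of the 14192 genes tested, as log2(mean normalised reads + 1), in Chow_EmKCs (x axis, n = 6) and MCD_MoKCs (y axis, n = 7). The solid line marks equal levels and the dotted lines a 2-fold difference; the 1313 higher genes spread farther from the line, up to Gpnmb and Cd93, than the 1139 lower genes, with Clec4f at the far right below it.

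The genes that mark Kupffer cells among macrophages were lower nearly throughout. Of 22 Kupffer cell identity genes 21 were lower in MCD_MoKCs and 0 higher, against 8.03% lower among all genes tested. Wherever limma called 0 members of a list in a direction, edgeR and DESeq2 also called 0 there. At an unadjusted p under 0.05 limma then had 0 to 2 such members, the 2 being lower lysosomal genes. The median log2 fold change of the list was -2.14, and 12 members were lower by more than 2-fold (1.51% of all genes tested). In 19 the ranges of the groups did not overlap (3.58% of all genes tested lay below in that way). Adrb1, a beta-adrenergic receptor, was the member that did not pass, at -0.58 (adjusted p = 0.147).

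Clec4f, a lectin receptor for galactose-terminated glycans (ENSMUSG00000014542, chromosome 6, 83644542 to 83656187, GRCm38, as mm10), had 197363 to 260533 normalised reads with a median of 211824 in Chow_EmKCs. In MCD_MoKCs it had 13948 to 27159.9 normalised reads with a median of 23325. Every MCD_MoKCs library was therefore far below every Chow_EmKCs library. The means were 219733 ± 22569 in Chow_EmKCs and 21839 ± 4644 in MCD_MoKCs (SD, n = 6 and 7, as wherever ± is used below), a log2 fold change of -3.36 (SE 0.14, adjusted p = 5.17e-13).

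C6, a component of the membrane attack complex (ENSMUSG00000022181, chromosome 15, 4727175 to 4814967), had 11735 to 18477 normalised reads with a median of 16635 in Chow_EmKCs and 452 to 1126 normalised reads with a median of 682 in MCD_MoKCs. Its mean was 22.1-fold lower in MCD_MoKCs, and the groups were far apart. The log2 fold change was -4.49 (SE 0.19, adjusted p = 5.17e-13). Vsig4, the complement receptor CRIg that captures opsonised bacteria, had 33745 to 58372 normalised reads with a median of 41102 and then 6744 to 9505 normalised reads with a median of 8221, without overlap. Its log2 fold change was -2.36 (SE 0.14, adjusted p = 7.28e-11).

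The largest difference in the identity list was that of Kcna2, a voltage-gated potassium channel, which went from 1039 to 30.6 mean normalised reads (log2 fold change -5.79, SE 0.61, adjusted p = 6.09e-07). The folate receptor Folr2 (-2.84, SE 0.25, adjusted p = 1.2e-07), the haemoglobin receptor Cd163 (-2.54, SE 0.29, adjusted p = 5.31e-06) and the prostaglandin dehydrogenase Hpgd (-1.97, SE 0.15, adjusted p = 5.48e-09) were lower without overlap of the groups. Cd163 differed among MCD_MoKCs libraries as well, with 1742 to 2329 normalised reads in libraries 1 to 3 and 3380.5 to 6212 in libraries 4 to 7. Other members kept a large part of their level. Cd5l, a secreted scavenger protein, had 43436 of 82810.00 mean normalised reads (-0.93, SE 0.14, adjusted p = 4.22e-05), and the decoy receptor Il18bp, whose 95% interval lay within 2-fold, was lower by a log2 difference of -0.64 (SE 0.17, adjusted p = 0.00933).

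Fcna, ficolin A, a lectin that starts the complement lectin pathway, was among the 5 genes past the threshold with the largest loss in normalised reads, at 62790.3 ± 12272 in Chow_EmKCs and 7919 ± 2407 in MCD_MoKCs. Its antisense gene Fcnaos overlaps it and carried nearly the same reads in each library, 1.02 to 1.11 times those of Fcna. Strand use in the counting is not given in the sources used here, so reads of the pair cannot be told apart, and the log2 fold changes of -3.02 (SE 0.19) and -2.94 (SE 0.19) count as 1 observation.

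The promoters of Clec4f and C6, the identity genes with the smallest adjusted p, are shown for comparison with promoters of genes that were higher. Each is 250 bases before and 50 bases after a start site, 5′ to 3′ on the gene's strand, from RefSeq on GRCm38.p6. Clec4f lies at chr6:83656067-83656366 on the minus strand and C6 at chr15:4726960-4727259 on the plus strand. Capitals would mark the motifs TGANTCA (AP-1) or CACGTG (E-box), each its own reverse complement and so the same on both strands, and neither window holds one.
Clec4f: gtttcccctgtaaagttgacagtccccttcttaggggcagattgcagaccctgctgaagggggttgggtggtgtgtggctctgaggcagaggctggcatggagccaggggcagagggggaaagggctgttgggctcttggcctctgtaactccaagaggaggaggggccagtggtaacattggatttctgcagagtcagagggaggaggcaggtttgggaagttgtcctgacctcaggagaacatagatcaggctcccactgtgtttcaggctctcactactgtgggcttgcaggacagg
C6: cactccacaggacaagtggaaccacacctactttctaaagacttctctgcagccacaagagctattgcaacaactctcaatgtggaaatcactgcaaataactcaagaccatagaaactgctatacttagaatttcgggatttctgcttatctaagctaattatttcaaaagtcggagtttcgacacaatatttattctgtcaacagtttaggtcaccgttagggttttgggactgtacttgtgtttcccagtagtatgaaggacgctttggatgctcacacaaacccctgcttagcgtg

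Most transcription factors of the lineage were close to their resident level. Of 16 lineage transcription factors 3 were lower and 1 higher, against 8.03% and 9.25% of all genes tested. For 11 the 95% interval lay within 2-fold (38.4% of all genes tested did so). The median log2 fold change was 0.04. Irf8, a factor of monocytes and Kupffer cells, had 5084 to 6529 normalised reads with a median of 5902 in Chow_EmKCs and 5531 to 7029 normalised reads with a median of 5918 in MCD_MoKCs. Its ranges overlapped and the 95% interval of its log2 fold change was -0.20 to 0.30, and Id3, a Kupffer cell lineage factor, one of -0.24 to 0.38. The count of 1 higher was 2 without libraries 1 to 3 of MCD_MoKCs, 0 without libraries 4 to 7 and 2 without Chow_EmKCs library 6.

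The factors that were lower were the nuclear receptor pair Nr1h3 and Rxra and the red pulp and Kupffer cell factor Spic. Nr1h3, which encodes LXR alpha, had 10950.00 to 15467 normalised reads with a median of 13834 in Chow_EmKCs and 6036 to 8023 normalised reads with a median of 6481 in MCD_MoKCs, without overlap (log2 fold change -1.003, SE 0.12, adjusted p = 3.84e-06). Its dimer partner Rxra was at -0.82 (SE 0.18, adjusted p = 0.00188) and Spic at -0.60 (SE 0.19, adjusted p = 0.0363), each with overlapping ranges. Rbpj, the nuclear effector of Notch, was higher (1.46, SE 0.36, adjusted p = 0.00646) from a low level of 90.8 mean normalised reads. Cebpb, a factor of activated myeloid cells, varied so much, from 62722 to 225930.00 normalised reads in Chow_EmKCs and 100140.00 to 485472 in MCD_MoKCs, that its log2 fold change of 0.65 (SE 0.44, adjusted p = 0.368) did not pass.

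Receptors for niche signals moved in both directions. Of 11 niche receptors and inhibitors 3 were lower, 2 were higher and 5 had an interval within 2-fold, with a median of -0.01. The shares over all genes tested were 8.03%, 9.25% and 38.4%. The BMP type I receptor Bmpr1a was lower at -2.52 (SE 0.56, adjusted p = 0.00257), as was the BMP receptor Acvrl1 (ALK1) at -1.07 (SE 0.20, adjusted p = 0.000554). The ALK1 co-receptor endoglin (Eng) was higher at 2.15 (SE 0.35, adjusted p = 0.000208), and the TGF-beta receptor Tgfbr1 at 1.28 (SE 0.17, adjusted p = 1.69e-05). Tgfbr2, the other chain of that receptor, had 2783 to 4488 normalised reads in Chow_EmKCs and 2560.2 to 4482 in MCD_MoKCs, with an interval of -0.35 to 0.34. The inhibitor Smad7 had a fold change of -0.03 (SE 0.34) with an interval of -0.76 to 0.69. Its MCD_MoKCs libraries fell into separate ranges, 877 to 1915 normalised reads in libraries 1 to 3 and 1972 to 3686 in 4 to 7. Csf1r, the receptor for the growth factor on which Kupffer cells depend, had 89605 to 106769 normalised reads with a median of 100498 and then 47804 to 67042 normalised reads with a median of 52122, without overlap (log2 fold change -0.86, SE 0.10, adjusted p = 3.6e-06).

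**Figure D2:**
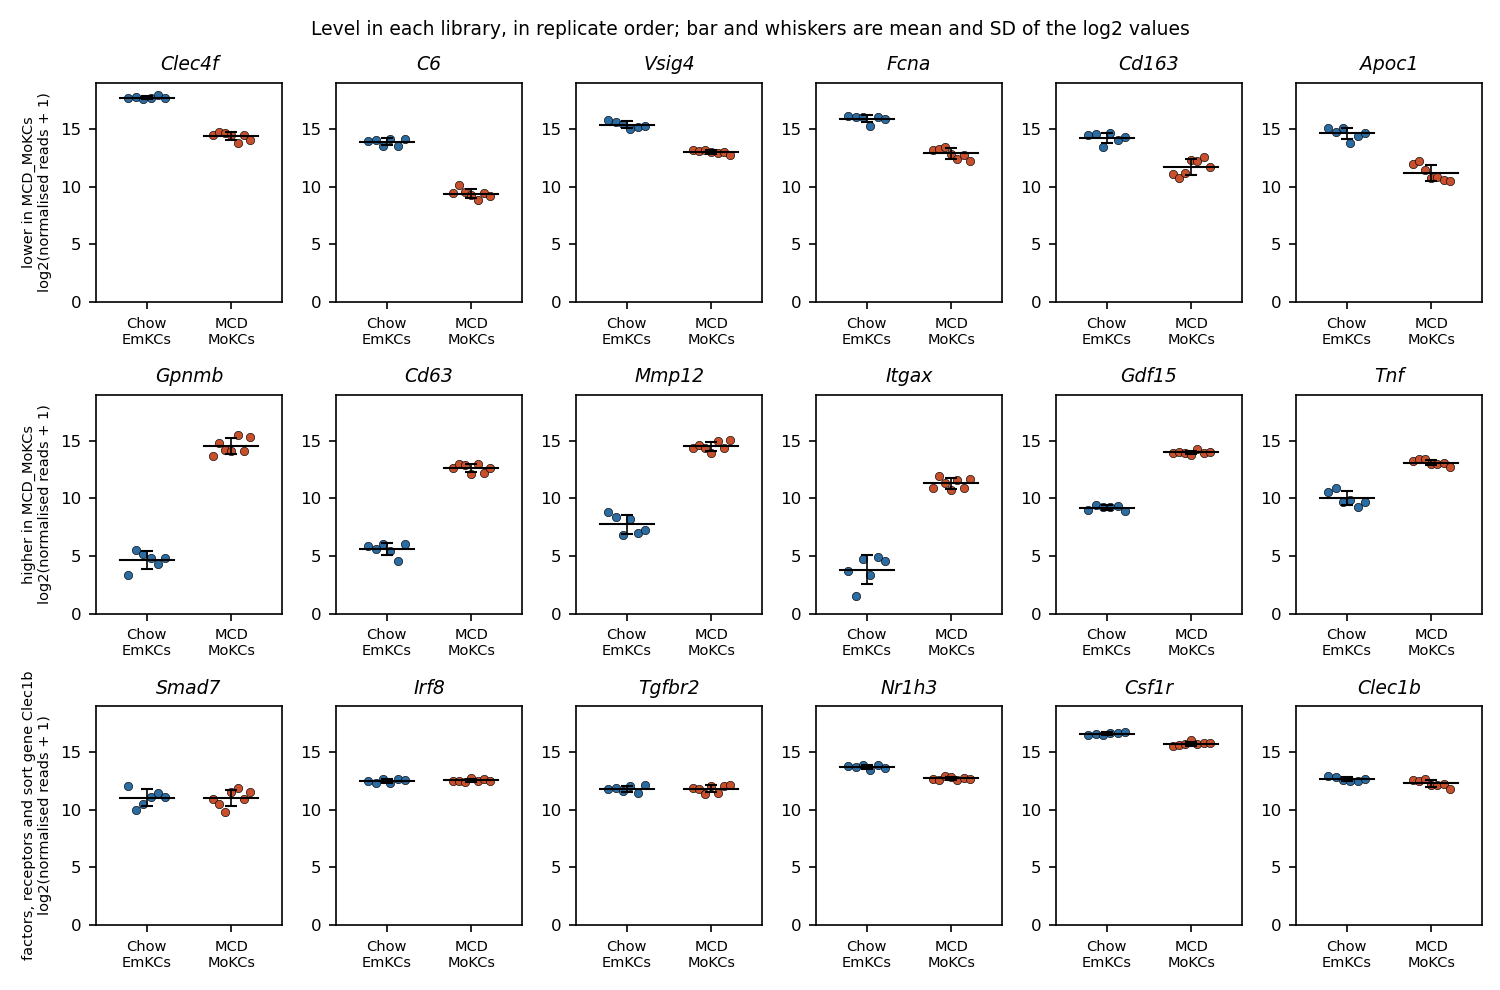
Level of 18 genes in each library as log2(normalised reads + 1), with Chow_EmKCs (n = 6) and MCD_MoKCs (n = 7) side by side and points in replicate order; the bar and whiskers are the mean and SD of the log2 values. Genes of the upper and middle rows do not overlap between the groups, and Smad7, Irf8, Tgfbr2 and Clec1b in the bottom row do.

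Complement genes were lower in most cases. Of 12 complement components and receptors 8 were lower and 1 higher, against 8.03% and 9.25% of all genes tested. The median log2 fold change of the list was -0.91. C4b, a classical pathway component, had 14699 to 25336 normalised reads with a median of 22296 in Chow_EmKCs and 905 to 2453 normalised reads with a median of 1632 in MCD_MoKCs (-3.73, SE 0.20, adjusted p = 2.18e-11). Cfp (properdin) and C2 had log2 fold changes of -1.37 and -1.07 and were lower. The C1q chains C1qa (-0.76, adjusted p = 0.00428) and C1qc (-0.75, adjusted p = 0.00636) passed, whereas C1qb was at -0.30 (adjusted p = 0.237). The anaphylatoxin receptor C5ar1 was the member that was higher, at 4611 to 7875 normalised reads against 1544 to 2543 (1.56, SE 0.16, adjusted p = 4.89e-07).

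Of 11 scavenger receptors 5 were lower and 1 higher, against 8.03% and 9.25% of all genes tested, and the median was -0.46. Beside Cd163, the bacterial receptor Marco (-1.46, SE 0.19, adjusted p = 7.17e-06), the hyaluronan receptor Stab2 (-1.40, SE 0.19, adjusted p = 1.63e-05) and the mannose receptor Mrc1 (-1.05, SE 0.16, adjusted p = 5.56e-05) were lower. The fatty acid translocase Cd36 was higher in every MCD_MoKCs library, with 658 to 1423 normalised reads with a median of 1185 in Chow_EmKCs and 6007 to 11955 normalised reads with a median of 7422 in MCD_MoKCs (2.92, SE 0.21, adjusted p = 2.02e-09). Msr1, the class A scavenger receptor, and Cd68 differed by 0.10 (SE 0.17) and 0.04 (SE 0.15) and did not pass.

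Most iron genes did not pass. Of 14 iron and heme handling genes 3 were lower, 1 was higher and 10 did not pass, against 8.03% lower and 9.25% higher among all genes tested. Slc40a1, ferroportin, the iron exporter, had 46858 to 70161 normalised reads with a median of 67769 and then 21167 to 36911 normalised reads with a median of 25838, without overlap (-1.23, SE 0.14, adjusted p = 2.11e-06). Transferrin, Trf (-0.97, SE 0.13, adjusted p = 8.46e-06), and the hepcidin regulator Hfe (-1.01, SE 0.18, adjusted p = 0.000388) were lower too. The ferritin heavy chain Fth1 was higher (0.92, SE 0.15, adjusted p = 0.000123), with library 3 of Chow_EmKCs, at 74796 normalised reads, above the lowest MCD_MoKCs library. Reads of Fth1 can be split with its processed copies, so its level is uncertain. The heme oxygenase Hmox1 did not pass, at -0.28 (adjusted p = 0.243). Without Chow_EmKCs library 3, or without library 5, 2 members were higher.

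Of 9 genes for uptake of apoptotic cells that were tested, 4 were higher and 1 lower, against 9.25% and 8.03% of all genes tested. The bridging molecule Mfge8 was higher (3.22, SE 0.61, adjusted p = 0.000593) from 40.2 mean normalised reads, and its integrin receptor chains Itgav (1.00, SE 0.25, adjusted p = 0.00595) and Itgb3 (3.40, SE 0.93, adjusted p = 0.013) were higher too. Gas6, the ligand of MERTK and AXL, was higher (0.90, SE 0.25, adjusted p = 0.0128), whereas Pros1, the other ligand, was lower (-0.79, SE 0.18, adjusted p = 0.00277). The receptors themselves, Mertk (-0.27, adjusted p = 0.249) and Axl (-0.25, adjusted p = 0.168), did not pass. The count of 4 higher fell to 2 without libraries 4 to 7 of MCD_MoKCs.

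The lipid-associated macrophage program was the reverse of the identity list. Of 20 members 16 were higher and 0 lower, against 9.25% higher among all genes tested, with a median log2 fold change of 3.10. In the same 16 members the ranges of the groups did not overlap (4.65% of all genes tested lay above in that way), and 11 were higher by more than 2-fold (2.92% of all genes tested). The members that did not pass were Apoe, Tyrobp, Ctsb and Ctsl, with means of 3498 (Ctsl) to 824135 (Apoe) normalised reads already in Chow_EmKCs.

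Gpnmb, which encodes a membrane glycoprotein found in foamy macrophages (ENSMUSG00000029816, chromosome 6, 49036546 to 49070929), had 8.91 to 45.9 normalised reads with a median of 27.9 in Chow_EmKCs. In MCD_MoKCs it had 12631 to 46478 normalised reads with a median of 18399.9, and libraries 5 and 7 were highest, at 46478 and 41559. The mean was 952-fold higher, with a log2 fold change of 9.85 (SE 0.35, adjusted p = 3.8e-13). It was also among the 5 genes past the threshold with the largest gain in normalised reads.

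Cd63, a tetraspanin of late endosomes (ENSMUSG00000025351, chromosome 10, 128900989 to 128912822), had 22.9 to 64.6 normalised reads with a median of 52.6 in Chow_EmKCs and 4509 to 8169 normalised reads with a median of 6435 in MCD_MoKCs (7.05, SE 0.25, adjusted p = 5.21e-14). Mmp12, the macrophage elastase (ENSMUSG00000049723, chromosome 9, 7344381 to 7369499), had 114 to 442 normalised reads with a median of 220.2 and then 15247 to 33579 normalised reads with a median of 21127 (6.77, SE 0.29, adjusted p = 1.09e-11). Neither gene had a library of one group near the other. The lipid receptor Trem2 had 455 to 883 normalised reads in Chow_EmKCs and 4486 to 8063 in MCD_MoKCs (3.29, SE 0.19, adjusted p = 7.44e-11), and the tetraspanin Cd9 66.3 to 149 and 1994 to 4291 (4.91, SE 0.24, adjusted p = 5.55e-12). The fatty acid binding proteins Fabp5 (6.73, SE 0.34, adjusted p = 1.09e-11) and Fabp4 (6.41, SE 0.78, adjusted p = 1.15e-05) were higher, as were the lipase Lpl (1.40, SE 0.15, adjusted p = 5.35e-07) and the lipid droplet coat protein Plin2 (1.19, SE 0.15, adjusted p = 5.72e-06). Apoe, the apolipoprotein, stood at 824135 ± 212495 in Chow_EmKCs and 1000260.00 ± 149579 in MCD_MoKCs, a log2 difference of 0.30 (SE 0.13, adjusted p = 0.138).

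For the lipid-associated list the promoters of Cd63 and Gpnmb, again the members with the smallest adjusted p, are shown. Mmp12 was added after its AP-1 motif was seen. Capitals mark AP-1 motifs. Cd63 lies at chr10:128909095-128909394 on the plus strand and holds neither motif. Gpnmb lies at chr6:49036268-49036567 on the plus strand with TGACTCA at bases 259 to 265 of the window. The window of Mmp12 is that of the second of its RefSeq start sites, at chr9:7347124-7347423 on the plus strand, with TGAGTCA at bases 207 to 213, and the window of its other start site holds none.
Cd63: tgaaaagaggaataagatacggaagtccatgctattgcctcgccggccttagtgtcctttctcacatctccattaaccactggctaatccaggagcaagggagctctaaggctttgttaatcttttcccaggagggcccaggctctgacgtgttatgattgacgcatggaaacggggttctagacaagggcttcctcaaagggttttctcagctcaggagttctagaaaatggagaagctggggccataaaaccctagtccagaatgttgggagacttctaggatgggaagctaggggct
Gpnmb: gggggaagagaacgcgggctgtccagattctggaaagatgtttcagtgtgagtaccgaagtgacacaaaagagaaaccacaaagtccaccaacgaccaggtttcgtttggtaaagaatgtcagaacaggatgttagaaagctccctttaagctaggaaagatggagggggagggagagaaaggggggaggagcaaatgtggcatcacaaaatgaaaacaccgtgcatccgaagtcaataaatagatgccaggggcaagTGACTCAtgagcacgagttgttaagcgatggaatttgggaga
Mmp12: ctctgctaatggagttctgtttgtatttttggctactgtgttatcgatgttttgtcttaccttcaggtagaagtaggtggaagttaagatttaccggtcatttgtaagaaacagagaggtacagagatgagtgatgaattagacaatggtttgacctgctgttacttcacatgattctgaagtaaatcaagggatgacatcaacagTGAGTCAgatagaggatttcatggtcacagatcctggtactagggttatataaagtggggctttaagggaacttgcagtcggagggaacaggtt

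The AP-1 motif TGANTCA was in 11.4% of the 377 promoters of genes higher by more than 2-fold and in 7.65% of the 196 promoters of genes lower by more than 2-fold. It was in 5.32% of the 12543 promoters of genes tested and in 7.81% of all 32851 RefSeq promoters read, whether or not their genes were tested. The E-box CACGTG was in 10.6%, 5.61%, 9.76% and 7.15% of the same sets. Promoters on chromosome 18 were left out of every set. The sets covered 282 of the 414 genes higher by more than 2-fold, 150 of the 215 lower and 9820 of the 14192 genes tested. The promoters also differed in CpG content, with a median of 12 CpG dinucleotides per window in the first set, 7 in the second and 20 in all promoters of genes tested. A match is a description of letters and no evidence of binding.

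Lipid handling beyond that program moved gene by gene. Of 10 LXR targets 3 were lower and 1 higher, against 8.03% and 9.25% of all genes tested, with a median of -0.13. Without Chow_EmKCs library 3, or without library 5, 2 were higher. Apoc1, an apolipoprotein gene next to Apoe, had 14342 to 36089.5 normalised reads with a median of 26592 in Chow_EmKCs and 1427 to 4714 normalised reads with a median of 1819 in MCD_MoKCs (-3.46, SE 0.29, adjusted p = 1.57e-07). The MCD_MoKCs libraries fell into separate ranges in it, with 2720.1 to 4714 in libraries 1 to 3 and 1427 to 1819 in libraries 4 to 7. The desaturase Scd1 was lower (-2.02, SE 0.34, adjusted p = 0.000218) and its paralog Scd2 higher (1.04, SE 0.25, adjusted p = 0.00537). The cholesterol exporters Abca1 (-0.24, adjusted p = 0.592) and Abcg1 (-0.34, adjusted p = 0.296) did not pass.

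Of 18 genes of cholesterol synthesis and uptake 9 were higher and 0 lower, against 9.25% and 8.03% of all genes tested, with a median of 0.86. The SREBP regulator Insig1 had 255 to 793 and 1157 to 1667 normalised reads (1.41, SE 0.23, adjusted p = 0.000125), without overlap. The enzyme Sqle, which oxidises squalene, was higher (2.55, SE 0.49, adjusted p = 0.000708). The count was 7 without libraries 1 to 3 of MCD_MoKCs and 3 without libraries 4 to 7.

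Of 14 genes of fatty acid oxidation 2 were higher, 1 was lower and 11 did not pass. These counts are near the 9.25% higher and 8.03% lower of all genes tested. Pparg, a lipid-sensing nuclear receptor kept in this list, was higher in every library, 1181 to 1832 against 168 to 653 normalised reads (2.19, SE 0.26, adjusted p = 2.22e-06). The mitochondrial entry enzyme Cpt1a was lower (-0.86, SE 0.23, adjusted p = 0.0128). Acadl was higher at 0.50 (SE 0.17, adjusted p = 0.0486), a call lost when any of several libraries was left out, with an adjusted p of up to 0.12. Without libraries 1 to 3 of MCD_MoKCs 1 member was higher and 0 lower, and without libraries 4 to 7, or without MCD_MoKCs library 2, 5 or 7, 2 were lower.

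Genes of monocytes and recently recruited macrophages were higher more often than lower. Of 20 members 11 were higher, 2 were lower and 7 did not pass, against 9.25% higher and 8.03% lower among all genes tested. All 11 exceeded 2-fold (2.92% of all genes tested were higher in that way), with a median of 3.76 over the list. Ccr2, the receptor that brings monocytes out of bone marrow, was at 0 in 4 of 6 Chow_EmKCs libraries and reached 59.4 normalised reads in library 5. In MCD_MoKCs it had 479 to 1107 normalised reads with a median of 682, above every Chow_EmKCs library (8.31, SE 0.80, adjusted p = 1.86e-07). Itgax (CD11c) had 1.86 to 29.2 and 1729 to 3936 (7.50, SE 0.45, adjusted p = 1.27e-10), and the fractalkine receptor Cx3cr1 1.04 to 101 and 2003 to 3853 (6.73, SE 1.02, adjusted p = 0.000522). The aspartic protease Napsa (6.68, SE 0.64, adjusted p = 1.74e-07), Chil3 (7.21, SE 0.89, adjusted p = 4.97e-06), S100a6 (6.68, SE 0.74, adjusted p = 1.16e-06) and fibronectin, Fn1 (4.21, SE 0.48, adjusted p = 1.7e-06), were higher too. Ly6c2, the mark of classical blood monocytes, had 0 to 19.9 and 0 to 92.2 and did not pass (1.93, adjusted p = 0.265). Plac8 (-1.41, adjusted p = 3.31e-05) and Klf2 (-0.79, adjusted p = 0.000366), both high in circulating monocytes, were lower.

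Inflammatory genes were higher in most cases. Of 22 cytokine and NF-kB genes 17 were higher and 0 lower, against 9.25% and 8.03% of all genes tested, with a median of 1.57. In 13 the ranges did not overlap (4.65% of all genes tested lay above in that way). Tnf had 601 to 1858 normalised reads with a median of 874 in Chow_EmKCs and 6680.4 to 10858 normalised reads with a median of 8509 in MCD_MoKCs (3.12, SE 0.22, adjusted p = 1.5e-09). The chemokines Ccl4 (1597 to 3327 and 12259.5 to 22919, 2.86, SE 0.18, adjusted p = 1.91e-10) and Cxcl2 (4541 to 6940.1 and 18338 to 28687, 2.15, SE 0.14, adjusted p = 5.66e-10) were higher in every library. They attract lymphocytes and neutrophils. Oncostatin M, Osm, was near 0 in resident cells (8.92, SE 0.69, adjusted p = 5.69e-09), and Ptgs2, the inducible cyclooxygenase, was higher as well (6.13, SE 0.80, adjusted p = 2.18e-05). Il6 (0.12, adjusted p = 0.777), Il18 (-0.26, adjusted p = 0.535) and Il10 (0.63, adjusted p = 0.065) did not pass, and Il1b was close to the threshold (0.52, adjusted p = 0.0492). Negative regulators of NF-kB were higher alongside, with Tnfaip3 (A20) at 1.54 (SE 0.21, adjusted p = 1.58e-05) and Nfkbia at 0.86 (SE 0.12, adjusted p = 1.83e-05).

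Beside these, genes known to respond to cell isolation were examined. Of 12 such genes 2 were higher (9.25% of all genes tested were), Egr1 (1.05, adjusted p = 5.35e-05) and Nr4a1 (1.20, adjusted p = 9.75e-06). In 10 the interval lay within 2-fold (38.4% of all genes tested), and the median was 0.27. Without Chow_EmKCs library 5, 4 were higher. Fos (0.05, SE 0.14), Jun (-0.12, SE 0.13) and Dusp1 (0.14, SE 0.15) did not pass. The list took 2.37 ± 0.324% of reads in Chow_EmKCs and 2.67 ± 0.365% in MCD_MoKCs (exact permutation test, two-sided, p = 0.132, adjusted over 17 library measures 0.28). Within MCD_MoKCs the share was 2.23 to 2.52% in libraries 1 to 3 and 2.60 to 3.34% in 4 to 7. The part of this list in the inflammatory difference was not tested.

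Pattern recognition differed by family, beside 9.25% higher and 8.03% lower among all genes tested. Of 10 Toll-like receptors and co-receptors tested 3 were higher and 0 lower, namely Tlr1 (1.54, SE 0.25, adjusted p = 0.000129), Tlr13 (1.50, SE 0.20, adjusted p = 1.72e-05) and the lipopolysaccharide co-receptor Cd14 (0.66, SE 0.13, adjusted p = 0.000714). Tlr4 was at -0.15 (adjusted p = 0.711). Without libraries 1 to 3 of MCD_MoKCs, or without library 6, 1 member was lower. Of 7 lectin receptors of the Mincle and Dectin family 5 were higher, led by Mincle, Clec4e, with 12.9 to 128 normalised reads with a median of 28.6 in Chow_EmKCs and 2266 to 5552 normalised reads with a median of 3078 in MCD_MoKCs (6.57, SE 0.44, adjusted p = 1.71e-09). Its neighbour and partner Clec4d was at 3.56 (SE 0.34, adjusted p = 1.35e-07) and Dectin-1, Clec7a, at 1.78 (SE 0.15, adjusted p = 2.72e-08). Of 5 Fc gamma receptor genes the inhibitory Fcgr2b was higher (4.84, SE 0.54, adjusted p = 6.11e-06) and the activating Fcgr4 (-0.89, SE 0.17, adjusted p = 0.000536) and Fcgr3 (-0.50, SE 0.14, adjusted p = 0.0162) were lower. Without libraries 4 to 7 of MCD_MoKCs 1 was lower. Fcgr2b is also abundant in sinusoidal endothelium.

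Of 17 matrix remodelling and growth factor genes 11 were higher and 2 lower, against 9.25% and 8.03% of all genes tested, with a median of 1.79. Beside Mmp12, the membrane protease Mmp14 had 554 to 1208 and 5571 to 8885 normalised reads (3.00, SE 0.17, adjusted p = 7.28e-11) and the urokinase receptor Plaur 402 to 673 and 4973 to 7021 (3.52, SE 0.16, adjusted p = 3.48e-12). The sheddase Adam8 (7.78, SE 0.92, adjusted p = 3.76e-05), the angiogenic factor Vegfa (6.16, SE 0.58, adjusted p = 2.92e-07) and the collagenase Mmp13 (6.04, SE 0.82, adjusted p = 3.7e-05) were higher from low levels. The growth factor Hbegf (-1.09, SE 0.24, adjusted p = 0.00283) and the inhibitor Timp2 (-0.63, SE 0.15, adjusted p = 0.00351) were lower. Tgfb1 was at 0.75 (SE 0.19, adjusted p = 0.00694), and Igf1 did not pass (0.15, adjusted p = 0.632). Without libraries 4 to 7 of MCD_MoKCs 1 member was lower.

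Antigen presentation genes stayed mostly within 2-fold of the resident level. Of 11 members 9 had a 95% interval within 2-fold, 2 were higher and 1 lower, against 38.4%, 9.25% and 8.03% of all genes tested. H2-Eb1, a class II beta chain, was higher by 0.56 (SE 0.18, adjusted p = 0.0302) and the costimulator Cd40 by 0.81 (SE 0.22, adjusted p = 0.014), while the costimulator Cd86 was lower (-0.70, SE 0.18, adjusted p = 0.0101). The other class II chains H2-Ab1 (0.37, adjusted p = 0.119) and H2-Aa (0.41, adjusted p = 0.2), the invariant chain Cd74 (0.29, adjusted p = 0.144) and Ciita (0.49, adjusted p = 0.188) did not pass. Without libraries 1 to 3 of MCD_MoKCs 0 members were higher, and without libraries 4 to 7 there were 4. The call of H2-Eb1 was also lost when 1 of several libraries of either group was left out, with an adjusted p of up to 0.079.

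Interferon-stimulated genes were lower more often than higher, 9 against 2 of 21, with a median of -0.60. Among all genes tested 8.03% were lower and 9.25% higher. Irf7, a transcription factor that drives interferon genes, had 16256 to 26814 normalised reads with a median of 20355 in Chow_EmKCs and 6856 to 13644 normalised reads with a median of 10367 in MCD_MoKCs, without overlap (-1.05, SE 0.16, adjusted p = 5.27e-05). The chemokine Cxcl10, which also responds to NF-kB, was higher (1.41, SE 0.26, adjusted p = 0.000549), and Isg15 (0.63, adjusted p = 0.152) and Mx1 (0.34, adjusted p = 0.453) did not pass. The count of 9 lower was 5 without Chow_EmKCs library 2, 5 without Chow_EmKCs library 3 and 5 without libraries 4 to 7 of MCD_MoKCs.

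**Figure D3:**
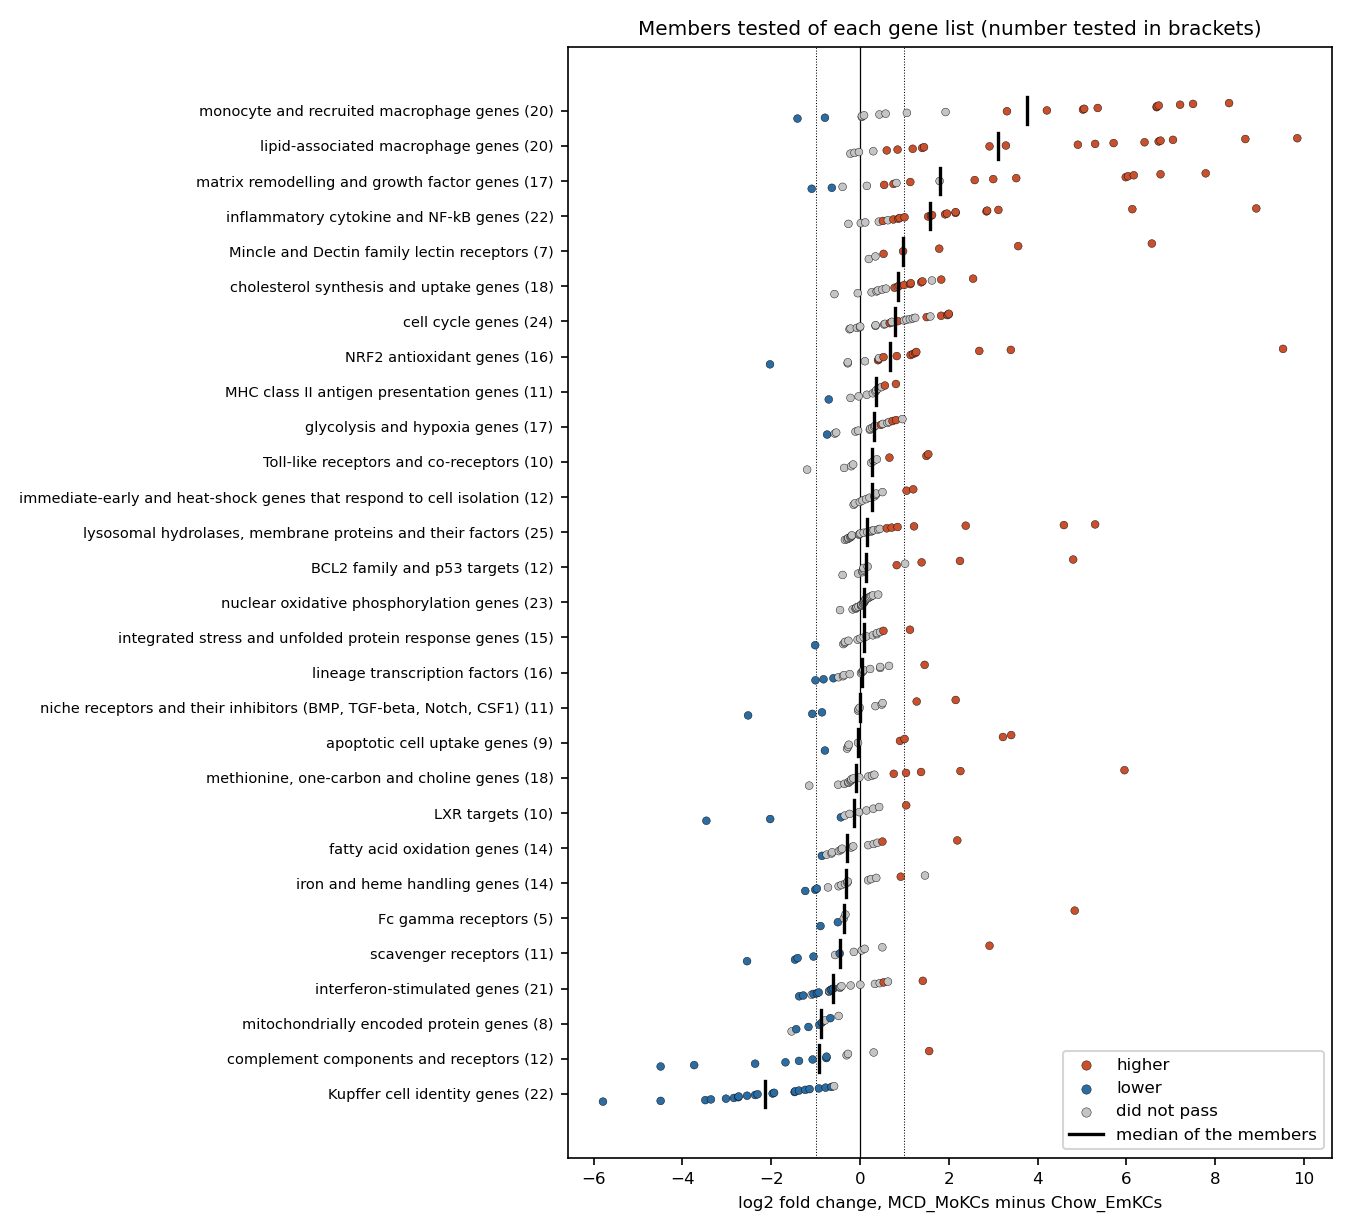
Log2 fold change (MCD_MoKCs minus Chow_EmKCs) of each tested member of 28 program lists and the isolation list, ordered by the median of the list, which is the vertical bar; dotted lines mark 2-fold. Monocyte (median 3.76) and lipid-associated genes (3.10) lie farthest to the right, Kupffer cell identity genes (-2.14) farthest to the left, and nuclear oxidative phosphorylation genes (0.09) lie closely around 0.

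Most lysosomal genes lay within 2-fold of the resident level, and the members that passed were higher. Of 25 lysosomal genes 20 had an interval within 2-fold and 7 were higher, against 38.4% and 9.25% of all genes tested. Cathepsin D, Ctsd, and prosaposin, Psap, an activator of sphingolipid breakdown, were among the 5 genes past the threshold with the largest gain in normalised reads. Psap had 23488 to 40592 normalised reads with a median of 28412 in Chow_EmKCs and 53889.9 to 82809 normalised reads with a median of 67868 in MCD_MoKCs (1.22, SE 0.13, adjusted p = 5.84e-07). Ctsd had 54688 ± 7435 in Chow_EmKCs and 98784 ± 17572 in MCD_MoKCs (0.85, SE 0.13, adjusted p = 6.07e-05). The osteoclast protease Ctsk (4.59, SE 0.81, adjusted p = 0.00029), the proton pump subunit Atp6v0d2 (5.29, SE 0.91, adjusted p = 0.00102) and the galactosidase Gla (2.38, SE 0.46, adjusted p = 0.00124) were higher from low levels. The lysosomal regulators Tfeb (0.16, adjusted p = 0.604) and Tfe3 (-0.20, adjusted p = 0.45) did not pass.

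All 23 nuclear oxidative phosphorylation genes had an interval within 2-fold, with a median of 0.09. None passed limma, edgeR or DESeq2, and by limma 1 was higher and 1 lower at an unadjusted p under 0.05. Without libraries 4 to 7 of MCD_MoKCs 2 of them were higher, and without libraries 1 to 3 there was 1 lower. Of 8 mitochondrially encoded protein genes tested 5 were lower and 0 higher, against 8.03% and 9.25% of all genes tested, with a median of -0.89. Examples were mt-Cytb (-1.16, SE 0.19, adjusted p = 0.000117) and mt-Nd2 (-1.44, SE 0.26, adjusted p = 0.00061). That count was 8 without libraries 1 to 3 of MCD_MoKCs and 2 without libraries 4 to 7. The share of reads on mitochondrial genes was 0.736 ± 0.211% and 0.432 ± 0.188% (exact permutation test, two-sided, p = 0.0245, adjusted 0.0693, lower than the Chow_EmKCs mean in 7 of 7). The mitochondrial genes mt-Co2, mt-Co3 and mt-Atp6, which have near-identical nuclear copies, were too low in the table to test, so these levels are uncertain.

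Of 17 glycolysis and hypoxia genes 3 were higher and 1 lower, against 9.25% and 8.03% of all genes tested. The higher members were Pkm (0.81, SE 0.13, adjusted p = 9.83e-05), Slc2a1 (0.73, SE 0.21, adjusted p = 0.0167) and Ldha (0.47, SE 0.13, adjusted p = 0.0154), and the hexokinase Hk3 was lower (-0.74, SE 0.13, adjusted p = 0.000339). Without MCD_MoKCs library 1, 5 were higher, and without libraries 4 to 7, or without library 7 alone, 2 were lower. Of 16 NRF2 antioxidant genes 11 were higher and 1 lower, against 9.25% and 8.03% of all genes tested, with a median of 0.68. Without libraries 1 to 3 of MCD_MoKCs 7 were higher. The 1 lower member lost its call without libraries 4 to 7 and without several single libraries. Slc7a11, the cystine importer, was at 0 in 5 of 6 Chow_EmKCs libraries and had 774 to 1556 normalised reads with a median of 1069 in MCD_MoKCs (9.53, SE 0.58, adjusted p = 1.81e-10). Sulfiredoxin, Srxn1, had 389 to 751 and 2425 to 4743 (2.69, SE 0.20, adjusted p = 3.56e-09) and peroxiredoxin, Prdx1, 7415 to 12131 and 15911 to 32809 (1.27, SE 0.17, adjusted p = 1.48e-05). Hmox1 and G6pdx (-0.28, adjusted p = 0.314) did not pass.

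The diet lacks methionine and choline, and genes of their metabolism were read as a list of 18. Beside 9.25% higher and 8.03% lower among all genes tested, 5 members were higher and 0 lower. They were the amino acid transporter Slc7a5 (5.96, SE 0.77, adjusted p = 8.36e-06), the folate enzyme Mthfd2 (2.26, SE 0.47, adjusted p = 0.00144), the choline transporter Slc44a1 (1.38, SE 0.30, adjusted p = 0.00262), and Pcyt1a (1.04, SE 0.20, adjusted p = 0.000692) and Chka (0.76, SE 0.19, adjusted p = 0.00598) of phosphatidylcholine synthesis. Mat2a, which makes S-adenosylmethionine, was at -0.19 (adjusted p = 0.527). Of 15 stress response genes 2 were higher, Atf3 (1.12, SE 0.15, adjusted p = 1.63e-05) and Herpud1 (0.53, SE 0.17, adjusted p = 0.0399), and Sesn2 was lower (-1.01, SE 0.20, adjusted p = 0.00117). These counts are near the 9.25% higher and 8.03% lower of all genes tested. The median of the stress list was 0.08, and 11 members had an interval within 2-fold. Herpud1 lost its call without MCD_MoKCs library 5 or 6 among others, with an adjusted p of up to 0.095. Without libraries 4 to 7 of MCD_MoKCs 1 member was higher, and without library 6 there were 2 lower. Ddit3 (-0.05, adjusted p = 0.91) and Atf4 (0.46, adjusted p = 0.0853) did not pass.

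Gdf15, a stress cytokine (ENSMUSG00000038508, chromosome 8, 70629393 to 70632456), had the smallest adjusted p of the genes named here. It had 479 to 665 normalised reads with a median of 605 in Chow_EmKCs and 14175 to 19254 normalised reads with a median of 15868 in MCD_MoKCs, with little spread in either group. The log2 fold change was 4.80 (SE 0.13, adjusted p = 7.47e-16). Among the 12 survival genes tested, 4 were higher and 0 lower, against 9.25% and 8.03% of all genes tested. The higher members were Gdf15, the cell cycle inhibitor Cdkn1a (2.25, SE 0.20, adjusted p = 7.38e-08), the death promoter Bcl2l11 (1.39, SE 0.20, adjusted p = 2.41e-05) and the survival factor Bcl2l1 (0.83, SE 0.19, adjusted p = 0.00379). Mdm2 (0.17, adjusted p = 0.679) and Bax (0.08, adjusted p = 0.817), targets of p53 like Cdkn1a, did not pass.

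Of 24 cell cycle genes 6 were higher and 0 lower, against 9.25% and 8.03% of all genes tested, with a median of 0.79. Mki67, expressed in cycling cells, had 92.7 to 339 normalised reads with a median of 190.3 in Chow_EmKCs and 421 to 976 normalised reads with a median of 697 in MCD_MoKCs, without overlap (1.97, SE 0.31, adjusted p = 8.19e-05). Ccna2 (1.50, SE 0.37, adjusted p = 0.00624) and the ribonucleotide reductase subunit Rrm2 (2.00, SE 0.49, adjusted p = 0.00636) were higher with overlapping ranges. The count was 3 without libraries 4 to 7 of MCD_MoKCs.

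Irrespective of the lists, the 10 genes with the highest fold change, by the rule for named genes, were Cd93, Gpnmb, Slc7a11, Ccr1, Dcstamp, Sema4d, Myo5a, Osm, Spp1 and Slpi, and all were near 0 in resident cells. Cd93, a C-type lectin-like receptor, had 0 reads in 4 of 6 Chow_EmKCs libraries and 1383 to 3907 normalised reads with a median of 2289 in MCD_MoKCs (10.38, SE 0.55, adjusted p = 2.18e-11). Ccr1, a chemokine receptor for CCL3 and CCL5, had 886 to 1208 normalised reads in MCD_MoKCs against at most 4.97. Sema4d, a semaphorin, and Myo5a, a vesicle motor, reached means of 2402 and 2140.2. Dcstamp, which drives fusion of macrophages, and the protease inhibitor Slpi had 0 reads in every Chow_EmKCs library. Against a floor of 3 reads per library, they were at least 197-fold and 151-fold higher. In all, 17 genes that were higher had 0 reads throughout Chow_EmKCs. Fitted fold changes of genes near 0 depend on the 1 added before taking logs.

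By the same rule the 10 genes with the lowest fold change were Rims4, Cnpy1, Serpina3k, Adra2c, Ephb6, Klhl29, Dscaml1, Plekhg4, Pon1 and En2. Most were of modest level in resident cells and near 0 in MCD_MoKCs. En2, a homeobox factor of the developing midbrain, had 198 to 368 normalised reads with a median of 263 in Chow_EmKCs and 0 to 42.3 in MCD_MoKCs (-5.87, SE 0.85, adjusted p = 3.38e-05), and its neighbour on chromosome 5, Cnpy1, was lower with it (-6.75, SE 0.88, adjusted p = 9e-06). Rims4, a synaptic scaffold protein, had 104 to 1184 and 0 to 67.8 (-6.97, SE 0.95, adjusted p = 1.67e-05), and the adrenergic receptor Adra2c 81.6 to 350.3 and 0 to 26.3 (-6.53, SE 0.90, adjusted p = 1.87e-05). Serpina3k (-6.55, SE 0.89, adjusted p = 1.63e-05) and Pon1 (-6.04, SE 0.83, adjusted p = 1.8e-05) are genes of hepatocytes, whose markers were lower too.

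In normalised reads rather than fold, the largest gains among genes past the threshold were those of Ctsd, Fth1, Psap, Dusp2 and Gpnmb, and the largest losses those of Clec4f, Fcna with Fcnaos, Csf1r and Cd5l. Dusp2, a phosphatase that turns off MAP kinases, had 5869.7 to 9017 normalised reads with a median of 6785 in Chow_EmKCs and 37508 to 57869 normalised reads with a median of 40159.6 in MCD_MoKCs, without overlap (2.60, SE 0.14, adjusted p = 2.18e-11).

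RNA of other cells was measured beside these results. Among 17 tested markers of hepatocytes 14 were lower in MCD_MoKCs and 0 higher, against 8.03% and 9.25% of all genes tested, with a median of -3.30. Their summed share was 0.0557 ± 0.0229% of reads in Chow_EmKCs and 0.00822 ± 0.00254% in MCD_MoKCs, lower in 7 of 7 libraries (exact permutation test, two-sided, p = 0.00117, the smallest this design allows, adjusted over 17 measures 0.00495). Albumin, Alb, had 1320.3 to 5389 and 115 to 609 normalised reads. The part of hepatocyte RNA in the lower level of genes such as Serpina3k and Pon1 was not tested.

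Beside 9.25% higher and 8.03% lower among all genes tested, 9 of 14 sinusoidal endothelial genes were higher and 2 lower, Pecam1 and Stab2. Their summed share was 0.0408 to 0.0582% in Chow_EmKCs and 0.0290 to 0.105% in MCD_MoKCs (exact permutation test, two-sided, p = 0.35, adjusted 0.553). Kdr, the VEGF receptor of endothelium, had 24.5 to 263 and 181 to 1872 normalised reads, and Clec4g 137 to 402 and 377 to 2398, with overlap in both. Libraries 2, 5 and 7 of MCD_MoKCs had the highest shares. The same libraries were the highest in Eng, Fcgr2b and Cd93, which endothelium also expresses, and in Gpnmb and Spp1. The part of endothelial RNA in these differences was not tested.

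Of the 4 neutrophil genes tested S100a8, S100a9 and Mmp8 were higher, while the summed share of the list did not pass (exact permutation test, two-sided, p = 0.992), and its other 6 members, Ly6g and Cxcr2 among them, were too low to test. The T and NK cell list took 0.00232 ± 0.000575% and 0.00738 ± 0.000944% of reads, above the Chow_EmKCs mean in 7 of 7 libraries (exact permutation test, two-sided, p = 0.00117, adjusted 0.00495). Of its 10 members tested 4 were higher, 1 was lower and 5 did not pass, against 9.25% higher and 8.03% lower among all genes tested. Ccl5 led the higher members (2.86, SE 0.29, adjusted p = 2.92e-07), while Cd3e reached at most 88.9 normalised reads. The lower call was lost without libraries 4 to 7 of MCD_MoKCs and without several single libraries. The dendritic cell list took 0.00962 ± 0.00255% and 0.0171 ± 0.00357% (exact permutation test, two-sided, p = 0.0035, adjusted 0.0119), with Ccr7 (3.52, SE 0.44, adjusted p = 5.98e-06), Flt3 (4.62, SE 0.93, adjusted p = 0.00108) and Siglech (4.33, SE 0.82, adjusted p = 0.000638) higher and Xcr1 (2.32, adjusted p = 0.0632) and Clec9a (0.11, adjusted p = 0.858) not passing. Of 4 platelet genes tested 3 were higher, led by Pf4 (2.99, SE 0.31, adjusted p = 6.08e-07), while the defining members Gp9, Gp1bb, Ppbp and Tubb1 were too low to test. Only 1 was higher without libraries 4 to 7 of MCD_MoKCs, and 1 with edgeR. The platelet list took 0.00236 ± 0.000923% and 0.0173 ± 0.00581% of reads, above the Chow_EmKCs mean in 7 of 7 libraries (exact permutation test, two-sided, p = 0.00117, adjusted 0.00495). Of the cholangiocyte list only Spp1 passed, and Krt19, Epcam and Sox9 were too low to test. That list, Spp1 included, took 0.00018 ± 0.00017% and 0.0153 ± 0.0118% of reads (exact permutation test, two-sided, p = 0.00117, adjusted 0.00495). Stellate, B cell, erythroid and peritoneal macrophage lists had 0 members that passed (limma), except for 1 lower stellate gene without libraries 4 to 7 of MCD_MoKCs, and the mast cell and basophil genes had 0 reads. The part of these cells in the results was not tested.

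**Figure D4:**
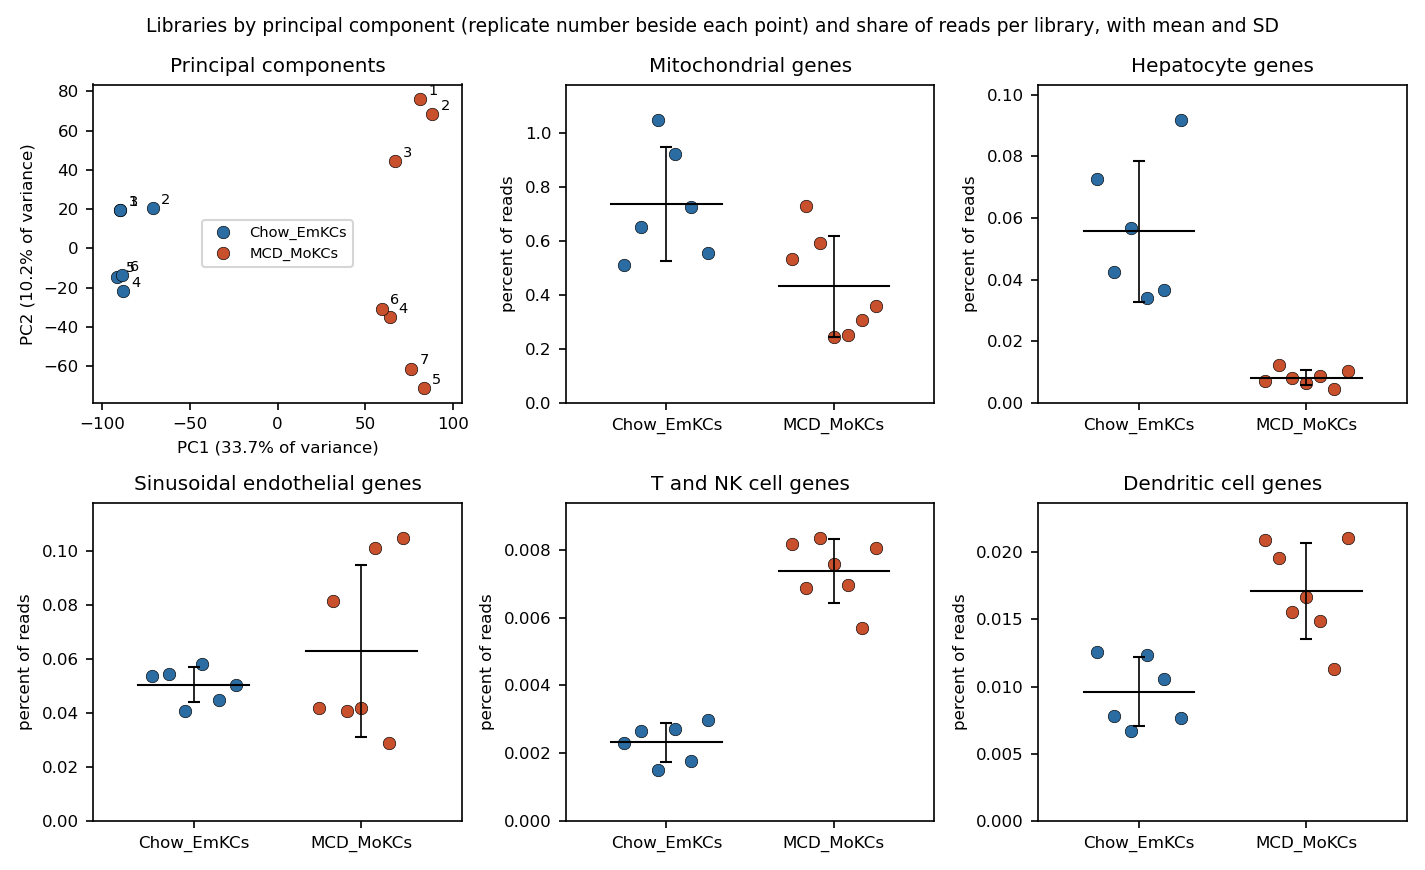
Libraries on the first 2 principal components, with replicate numbers, and the percentage of reads on mitochondrial genes and 4 lists of other cells in each library (points), with the mean and SD of Chow_EmKCs (n = 6) and MCD_MoKCs (n = 7). The groups separate on PC1, libraries 1 to 3 of MCD_MoKCs separate from 4 to 7 on PC2, hepatocyte shares are lower in every MCD_MoKCs library, and endothelial shares are highest in 3 of them.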

How the data were processed

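RNA was sequenced from sorted Kupffer cells (SMART-seq, per the labels' protocols). The authors deposited 1 table of 33919 gene identifiers whose values are a normalised read signal: within a library all values were whole multiples of 1 step (tolerance 0.001 reads), that is, reads divided by 1 size factor, and reads were recovered by dividing by it. STAR, DESeq2 and mm10 are named in the submitters' processing notes, with no versions. How reads were counted, with which annotation and whether by strand, is not given in the sources used here. Symbols (29062 of 33919) and positions are those of GENCODE on the same build.

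The 14192 genes that reached 10 in 6 or more of the 13 libraries were tested with limma (version 3.58.1 in R version 4.3.3), after log2(value + 1), with a variance trend and robust estimates, two-sided, with Benjamini-Hochberg adjustment at 0.05. Fold changes are on that scale and understate those of low genes. limma's treat tested for more than 2-fold. edgeR 4.0.16 (quasi-likelihood) and DESeq2 1.42.0 on the recovered reads, other pseudocounts, filters and scalings, and fits without libraries were alternatives. Values for other cells are shares of reads. The fit was also run on simulated reads with the same spread setting for every gene and no sets of libraries. Changes were placed there only in genes well above the filter. That run therefore does not bear on low genes or on the split among MCD_MoKCs libraries.

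Named genes are the 10 highest and 10 lowest fold changes among called genes with a mean of at least 100 and a stable direction when 1 library is left out, the 5 largest gains and losses in reads, up to 3 members per program list by adjusted p, the 2 members nearest 0 with an interval within 2-fold of the identity, factor and niche lists, Timd4 and Clec1b. Other genes are examples of list counts. Of 577 entries in 41 lists 517 were tested. Groups, members and lists were chosen with earlier results of these data known. No sign of pairing by replicate number was seen, and libraries were treated as unpaired. Results of some genes are not reported here.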

Additional observations from a re-analysis of the deposited data

Results flagged for a closer look

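Of 246 groups of values examined, 25 held a library whose gap to the nearest other was large for the range of its group. Chance flags about 1 in 20 groups. Most concern genes near 0 in the group. In Chow_EmKCs, library 6 had 8.17 normalised reads of Slc7a11 and the others 0, with 28.02 of Osm and 52.5 of Spp1. Library 3 had 8.70 of Cd93, library 4 had 48.8 of Sema4d, library 1 had 17.8 of Myo5a, and library 5 had 59.4 of Ccr2 and 21.9 of Slc7a5. In MCD_MoKCs, library 1 had 18.3 of Cnpy1 and 8.31 of Ephb6, library 3 had 67.8 of Rims4, library 4 had 92.1 of Klhl29, and library 7 had 69.0 of Serpina3k and 42.6 of Plekhg4. These genes kept their direction whichever single library was left out.

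The remaining flags are of expressed genes. In Chow_EmKCs, library 1 had 489 normalised reads of Klhl29 and 4804 of Scd1, library 3 had 74796 of Fth1, library 4 had 173 of Sqle, and library 6 had 1001 of Eng. In MCD_MoKCs, library 2 had 743 of Timd4, library 5 had 5248 of Eng and 19254 of Gdf15, library 6 had 1107 of Ccr2 and library 7 had 3115 of Marco. Library 2 of Chow_EmKCs had 27401870 total reads, the most of its group.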

How the results depend on the processing

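Of the 2452 genes past the threshold, 2000 passed edgeR (2054 calls) and 2272 passed DESeq2 (2597 calls), with 0 of opposite sign under any alternative. Leaving out 1 library gave 2128 to 2380 calls, 1201 to 1278 higher and 926 to 1102 lower, and 549 to 614 genes beyond 2-fold. The share of calls that were higher, 53.5%, was 48.8% with total read scaling, which moved the median log2 fold change of all genes to -0.05. The counts moved by over 1.5 times in subsets. Within library numbers from 37 (3 Chow_EmKCs and 2 MCD_MoKCs) 1039 genes passed, 542 higher and 497 lower, and 229 were beyond 2-fold. Within numbers up to 33 (3 and 5) it was 1314, 828, 486 and 334. Without MCD_MoKCs 4 to 7, 419 genes were beyond 2-fold. These subsets hold fewer libraries. Within numbers from 37 the difference in total reads was 8023600 (MCD_MoKCs minus Chow_EmKCs) against 55787 over all libraries, and that in the erythroid share was -0.000797 against 0.000898 percentage points. The cause was not tested.

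Same-numbered libraries of the groups correlated at -0.0365 to 0.0682 in their deviations from the group means, and 1 of 6 numbers correlated best with its own. These values gave no sign of pairing by number, but 6 correlations cannot exclude it. With the replicate number as a block, in which MCD_MoKCs 7 has no partner and does not bear on the difference, 2533 genes passed, 2185 of them shared with the fit without it. None of the 108 named genes reversed under any alternative. Clec1b passed with the library number sets as a covariate (-0.45), without MCD_MoKCs library 3 (-0.44) and without MCD_MoKCs 1 to 3 (-0.60). H2-Eb1, Acadl and Herpud1 lost their calls most widely. Lists with 0 lower members had 1 without Chow_EmKCs library 2 (cholesterol, and methionine and choline metabolism) or library 4 (lysosomal). Whether depth limited calls at low levels was not tested.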

Other observations

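Several gene families that were not among the lists, some sharing members with them and all chosen after their values were seen and read by symbol among protein-coding genes, also differed. Of 13 chemokine receptors 7 were higher in MCD_MoKCs and 0 lower, with a median log2 fold change of 2.04. Of 10 S100 proteins, small calcium-binding proteins of myeloid cells, 6 were higher and 0 lower (median 3.68). Of 41 G protein-coupled receptors named Gpr or Adgr 17 were higher and 6 lower, but 8 and 3 without libraries 4 to 7 of MCD_MoKCs. Of 19 tetraspanins 8 were higher and 4 lower. Of 24 serpins 16 were lower and 1 higher (median -2.93), beside the lower hepatocyte genes given above. Among all genes tested 9.25% were higher and 8.03% lower. Zinc finger proteins named Zfp were near the latter share, with 23 of 277 lower (8.30%) and 7 higher. The counts of higher members of the first 2 families were the same with edgeR's TMM scaling and with total read scaling.

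The count for cytosolic ribosomal proteins depended on the libraries used. Of 91 members 9 were higher and 0 lower, with a median of 0.50. Without libraries 1 to 3 of MCD_MoKCs 2 were higher (median 0.08), and without libraries 4 to 7 there were 42 (median 1.02). Mitochondrial shares were also higher in libraries 1 to 3 than in 4 to 7, while total reads and the number of genes with at least 1 read were lower. The part of depth and library quality was not tested. Among the 17 higher genes with 0 reads in every Chow_EmKCs library were, beside Dcstamp and Slpi, Emp1 (at least 116-fold higher against a floor of 3 reads per library), the potassium channel Kcna3 (at least 94.0-fold) and interferon beta, Ifnb1 (at least 17.9-fold), with 3.80 to 113 normalised reads in MCD_MoKCs. Kcna2, a channel of the same family, was lower, as given above.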
